A study of Mus musculus with 14 samples.

Results

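The cytosolic ribosomal protein genes encode the protein parts of the ribosome, the machine that translates messenger RNA. They were followed here in the visual cortices of 14 male mice. Members were found by symbol: Rpl or Rps followed by a digit, or Rplp0, Rplp1, Rplp2 or Rpsa, without pseudogene symbols that carry -ps and without the Rps6k kinases. This gave 85 of the 12874 genes in the table. They comprised 46 core genes of the large (60S) subunit, 31 core genes of the small (40S) subunit, 4 paralogues (Rpl7l1, Rpl22l1, Rpl36al and Rps27l), 3 retrogenes (Rps23rg1, Rps27rt and Rpl37rt) and Rps19bp1. The last of these matches by symbol but encodes a nucleolar binding partner of the Rps19 protein, so the rule also collected a gene that is no ribosomal protein.

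Each mouse received stimulation at 20Hz or at 40Hz for 1 hour, with 7 mice per frequency. All mice were of genotype WT and came from breeding 5xFAD mice, an amyloid model, on a B6SJL background, which is a cross of inbred strains. Of the mice, 3 of 7 at 20Hz and 4 of 7 at 40Hz were 5 months old, and the others were 4 months old. The labels name neither the kind of stimulus nor an unstimulated group, and each sample carries an ID number of its own. RNA was sequenced from whole tissue. The deposited values are read counts divided by a scaling factor for each sample, called normalized counts below. Recovered reads, summed over the genes in the table, numbered 6108717 to 13744933 per library. Neuronal markers (Snap25, Syt1, Rbfox3, Slc17a7 and Gad1) summed to 35747 to 46759 normalized counts per library. Choroid plexus markers (Ttr, Kl, Clic6, Sostdc1 and Aqp1) summed to 5139 and 29784 in 20Hz replicates 1 and 2 and to between 305 and 510 in the other libraries. Dentate gyrus markers summed to 2627 and 1451 in 20Hz replicates 2 and 7, to 1338 in 40Hz replicate 4 and to 167 to 559 elsewhere. Pericyte markers summed to 6509 to 7382 in 40Hz replicates 1, 2, 3 and 5. They summed to 4793 to 5714 in the other 40Hz mice and to 4606 to 5777 at 20Hz. The part of dentate gyrus and pericyte RNA in the results below was not tested.

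In the ribosome the small subunit reads the messenger and the large subunit joins amino acids, and nearly every core protein is needed in an equal number of copies. The genes are known for acting as a block. Their messengers begin with a cytosine and a run of pyrimidines, the terminal oligopyrimidine tract, through which the growth kinase mTOR and the binding protein Larp1 set their translation. In neurons, ribosomal protein messengers are also found in dendrites and axons.

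RefSeq start sequences of 7 members that hold a short pyrimidine motif are given here. Windows of 250 bases before to 50 bases after an annotated start were matched for 65 of the 85 members (76 windows, build GRCm38.p6). The windows below run from 30 bases before to 20 bases after the start, 5′ to 3′ on the gene's strand. Capitals mark the first match to CTTTC, a short form of the pyrimidine tract, searched on the sense strand only.
Rpl28, chr7:4792935-4792984, plus strand: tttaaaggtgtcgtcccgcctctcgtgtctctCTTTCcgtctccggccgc
Rpl27a, chr7:109519165-109519214, plus strand: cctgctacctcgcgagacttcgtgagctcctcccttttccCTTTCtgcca
Rpl35, chr2:39005112-39005161, minus strand: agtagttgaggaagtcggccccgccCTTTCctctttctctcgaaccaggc
Rpl38, chr11:114668550-114668599, plus strand: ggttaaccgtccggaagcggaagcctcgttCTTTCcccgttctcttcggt
Rps10, chr17:27635225-27635274, minus strand: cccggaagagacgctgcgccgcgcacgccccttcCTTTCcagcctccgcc
Rps15a, chr7:118116128-118116177, minus strand: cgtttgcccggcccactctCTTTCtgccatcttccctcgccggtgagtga
Rpl5, chr5:107900498-107900547, plus strand: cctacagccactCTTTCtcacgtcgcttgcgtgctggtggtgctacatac
The match begins at base 1 of the annotated transcript in Rpl38, and after it in Rpl28, Rpl27a and Rps10. In Rpl35, Rps15a and Rpl5 it begins before the annotated start, by 11 bases in Rps15a. The last pair, Rps15a and Rpl5, are shown because their values did not follow the others.

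CTTTC was found from 20 bases before to 30 bases after the start in 30.3% of the members' windows, against 6.57% of all 32851 windows. It occurred in 40.0% of the 40 large subunit windows and in 18.5% of the 27 small subunit windows. CCGGAAG, the core recognised by ETS family factors, was searched on both strands of the whole 300-base window. It occurred in 34.2% of the members' windows and 8.86% of all windows. AAGATGG, a core that YY1 recognises, was present on either strand in 15.8% and 6.34%, and the GC box GGGCGG in 60.5% and 35.7%. The median log2 difference between 40Hz and 20Hz was -0.10 in the 20 tested core members with CTTTC and -0.089 in the 35 without it. It was -0.10 in the 24 with CCGGAAG and -0.087 in the 31 without it. Members with and without these motifs also moved with the other core members from mouse to mouse to a like degree. The median correlation was 0.888 with CTTTC and 0.893 without it, and 0.902 with CCGGAAG and 0.888 without it. Members with and without the other motifs were not compared.

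Levels in the table differed widely between members. Mean normalized counts over the 14 mice ran from 4.10 for Rpl22 to 13767 for Rpl41, with a median of 928 in the large and 1286 in the small subunit. Per kilobase of coding length, which leaves out the untranslated ends, Rpl41 stood highest at 183561, followed by Rps29 at 39870 and the acidic stalk gene Rplp1 at 29187. Rpl41 encodes the shortest protein of the ribosome, with a coding length of 75 bases without the stop codon. At the low end stood Rpl22, Rps27 and its paralogue Rps27l, at 10.7, 17.5 and 58.4 per kilobase. Proteins that sit side by side in the stalk on the large subunit, Rplp1 and Rplp2, had mean normalized counts of 9982 and 32.1.

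The level in the table went with the number of transcript models of the gene in RefSeq. The 45 core members with 1 RefSeq transcript had a median mean normalized count of 1534, and 1 of them, Rpl4, lay under 500. The 32 core members with 2 or more transcripts had a median of 311, and 21 of them lay under 500. Per kilobase of coding length the medians were 2977 and 579. Across all listed genes the medians were 327 for the 3944 genes with 1 transcript and 49.4 for the 8775 with 2 or more. The sources used here do not say how reads shared by several transcripts were counted, and the part of this in the levels was not tested. The order of the members by level is therefore an order of values in this table, and the comparisons between mice below are made within each gene.

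**Figure D1:**
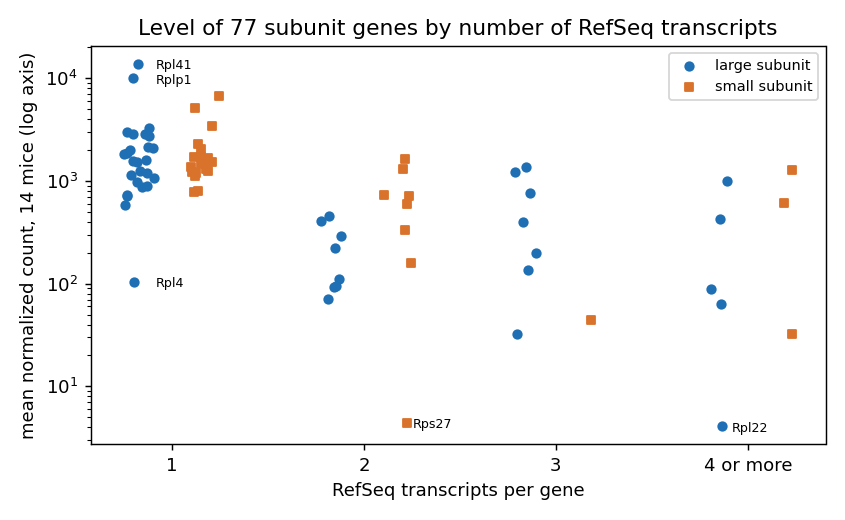
Mean normalized count over 14 mice (log axis) of the 77 core subunit genes against the number of RefSeq transcripts of each gene; each point is a gene, with a small sideways offset for legibility. Among genes with 1 transcript only Rpl4 lies near 100, while genes with 2 or more spread from 4.10 to 1621.

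Near-identical copies also limit the values of single genes. The start of Rps27 and that of its retrogene Rps27rt, which lie on different chromosomes, are shown because they share sequence. Capitals mark the longest run they share within the printed window, 19 bases, and the shared run reaches 38 bases within the full 300.
Rps27, chr3:90213629-90213678, minus strand: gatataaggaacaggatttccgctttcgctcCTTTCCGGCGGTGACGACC
Rps27rt, chr9:114982720-114982769, minus strand: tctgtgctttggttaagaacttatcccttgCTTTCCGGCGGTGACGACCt
Rps27 was low in every mouse, at 1.74 to 12.8 normalized counts, and the retrogene stood higher, at 12.9 to 40.7. The paralogue Rps27l measured 5.33 to 23.5. Values of these 3 genes, and of the retrogenes Rpl37rt and Rps23rg1, are uncertain where counting could split reads between copies, which was not tested. Pairs of more distant paralogues also differed in level. Rpl22 lay between 0 and 10.7, while its paralogue Rpl22l1 measured 230 to 362.

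From mouse to mouse the members moved as a block. A total of 82 members reached the minimum mean of 10 normalized counts for testing, and Rpl22, Rps27 and Rps23rg1 did not. Of the core genes 75 were tested, 45 large and 30 small. The subunit values here are means over these genes of log2(normalized count + 1), taken as the deviation from each gene's mean over the 14 mice. At 20Hz they were 0.11, -0.12, 0.32, -0.11, -0.017, -0.033 and 0.14 for the large subunit in replicates 1 to 7. The small subunit gave 0.14, -0.12, 0.35, -0.14, -0.0086, -0.10 and 0.14 in the same order. At 40Hz the large subunit gave -0.21, -0.0063, -0.18, 0.16, -0.078, -0.085 and 0.11, and the small subunit -0.21, -0.053, -0.18, 0.19, -0.076, -0.043 and 0.11. Both subunits were highest in 20Hz replicate 3, where the 75 genes stood on average 1.26-fold above their means. Both were lowest in 40Hz replicate 1, at 0.867-fold. The frequencies overlapped between -0.12 and 0.17 over both subunits. The highest mouse at 20Hz lay above this stretch, and 40Hz replicates 1 and 3 lay below it.

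**Figure D2:**
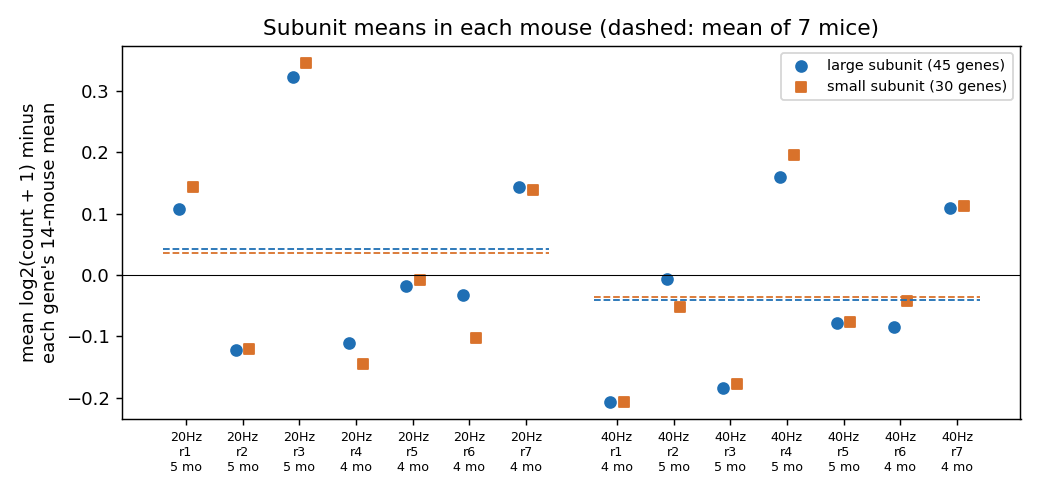
Mean deviation of log2(normalized count + 1) from each gene's 14-mouse mean, for large (circles) and small (squares) subunit genes in each mouse, labelled by frequency, replicate and age; dashed lines are means of 7 mice. The subunits stay close together in every mouse, and both groups hold mice above and below 0.

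The large minus small difference in a mouse ran from -0.042 in 40Hz replicate 6 to 0.070 in 20Hz replicate 6, a narrower range than that of either subunit. The 20Hz mice averaged 0.0058 ± 0.036 and the 40Hz mice -0.0058 ± 0.029 (SD, n = 7 per frequency). After removal of each frequency's mean, the large and small subunit means correlated at r = 0.98 over the 14 mice. This is a description: the means share libraries and scaling factors. The median correlation between pairs of genes was 0.74 within the large subunit, 0.80 within the small and 0.77 across them. Rpl9 followed the other core members most closely, at r = 0.98, and the median for all 75 was 0.89. The median over the 10607 other tested genes against the same mean was -0.016, and over the 1843 of these with a mean of at least 1000 it was 0.17. Core members with 1 RefSeq transcript had a median pairwise correlation of 0.85, and those with 2 or more had 0.48. The latter were also lower in count.

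Rps15a stood apart among the abundant members. It encodes a protein of the small subunit body and was outranked in mean normalized count only by Rpl41, Rplp1 and Rps29. At 20Hz Rps15a measured 4722, 5276 and 5579 normalized counts (lowest, median and highest), and at 40Hz 5016, 5210 and 5329. In 20Hz replicate 3, where most members peaked, it stood at 5417, and in 40Hz replicate 1, where most were lowest, at 5294. Its SD between mice of a frequency was 0.065 on the log2 scale, against a median of 0.19 for the core members and 0.13 for all tested genes with a mean of at least 1000. Its correlation with the mean of the other core members was 0.23. Among members that followed the rest poorly, it was alone in having a mean above 1000 together with r under 0.4.

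Rps2, a protein at the messenger entry side of the small subunit, varied most, with an SD of 1.10 on the log2 scale. It measured 286, 153, 310, 49.4, 149, 46.9 and 56.0 normalized counts in 20Hz replicates 1 to 7. At 40Hz it measured 120, 60.4, 47.7, 318, 282, 171 and 165 in replicates 1 to 7. The groups overlapped: the high values were in 20Hz replicates 1 and 3 and 40Hz replicates 4 and 5, and each group also held mice with low values. Rpl5, which binds the 5S ribosomal RNA, ran against the others, with r = -0.24 at a mean of 71.3 normalized counts, and Rps19 did so with r = -0.14 at 32.6. The part of counting error in these weak correlations was not tested.

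**Figure D3:**
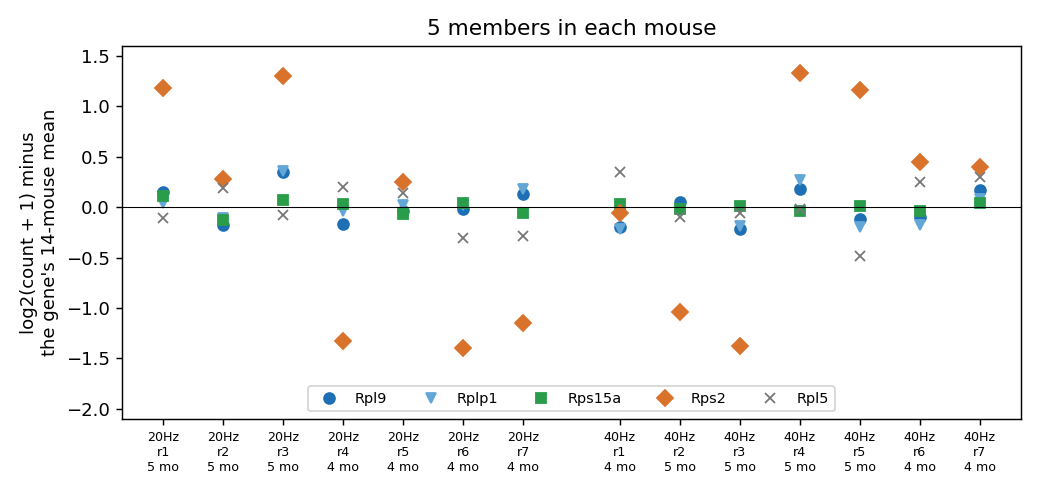
Log2(normalized count + 1) of 5 members in each mouse, as the deviation from the gene's 14-mouse mean. Rpl9 and Rplp1 move together, Rps15a stays near 0 with an SD of 0.065, and Rps2 spreads between 46.9 and 318 normalized counts at both frequencies.

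The comparison of 40Hz with 20Hz asks whether the rhythm of stimulation changes expression in the visual cortex. No ribosomal protein gene passed it. In limma 0 of the 82 tested members had an adjusted p under 0.05, where the percentage over all 10689 tested genes was 0, and the smallest adjusted p among members was 0.919. At an unadjusted p under 0.05 there was 1 member, Rps14, which was lower at 40Hz, where genes lower at that p made up 2.11% of all genes. The quasi-likelihood test of edgeR and the Wald test of DESeq2 likewise gave 0 members after adjustment, where all genes gave 0% and 0.0281%. Both gave 2 members lower at an unadjusted p under 0.05, Rps14 and Rps27l, where all genes gave 2.02% and 2.4%. In 0 members did the frequencies not overlap, against 0.0374% of all genes.

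The sign of the difference was shared widely. It was negative, that is lower at 40Hz, in 72 of the 82 tested members, where 51.2% of all tested genes were negative. Both subunits took part: 40 of 45 large and 27 of 30 small subunit genes were negative, with median log2 differences of -0.10 and -0.088. Over all tested genes the median was -0.0035. Because the members move as a block within each mouse, their 82 signs are far fewer than 82 separate observations. The difference between the subunit medians was -0.012, and it was not tested. Abundant genes as a whole leaned the same way: 67.2% of the 1887 genes with a mean of at least 1000, members included, were negative, with a median of -0.032. The share also differed with the number of RefSeq transcripts. With 1 transcript 44 of 45 core members were negative, against 63.1% of all such tested genes. With 2 or more it was 23 of 30 core members, against 45.6% of all such tested genes.

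**Figure D4:**
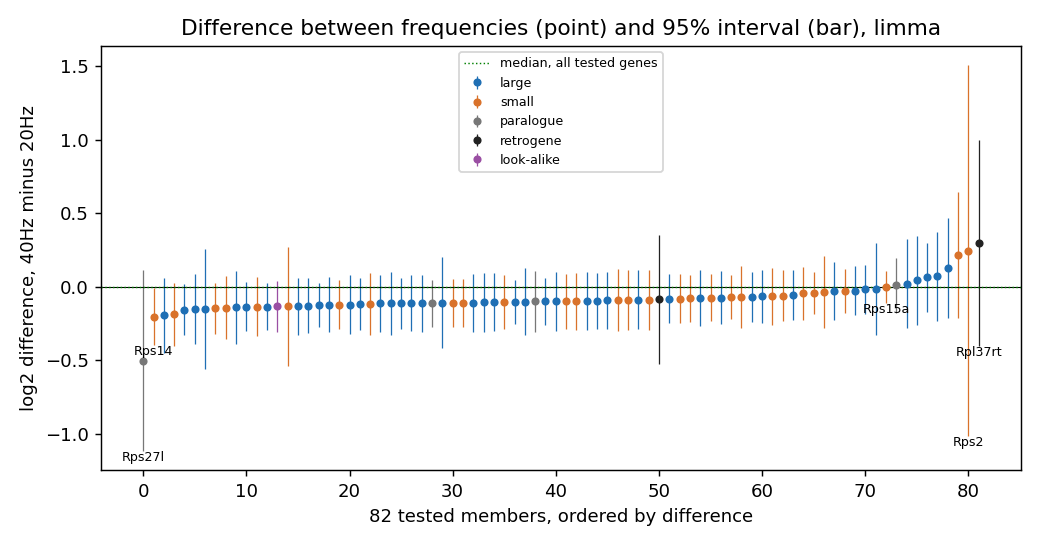
Log2 difference (40Hz minus 20Hz, limma) of each of the 82 tested members with its 95% interval, ordered by size and coloured by class; the dotted line is the median of all tested genes. Every interval but that of Rps14 crosses 0; the widest belong to low or variable genes such as Rps27l, Rps2 and Rpl37rt.

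Few mice carried much of this lean. The median over the tested members was -0.099 in all mice and -0.043 without 20Hz replicate 3. It was -0.065 without 40Hz replicate 1 and -0.023 without 40Hz replicates 1 to 3, with 58 of 82 members negative. The ID numbers of 40Hz replicates 1 to 3 lie below those of all 20Hz mice. What the ID order stands for is not given, and its part in the lean was not tested. Without 20Hz replicates 1 and 2, the libraries with choroid plexus transcripts, the median was -0.12. Library depth went with the members at its low and high ends. The 4 shallowest libraries, 20Hz replicates 1 and 7 and 40Hz replicates 4 and 7 with 6108717 to 8984973 reads, deviated by 0.11 to 0.17 over the 75 core genes. The 5 deepest, 20Hz replicates 2 and 5 and 40Hz replicates 1 to 3 with 11035135 to 13744933 reads, deviated by -0.21 to -0.014. With recovered reads as a covariate the median was -0.083 and 72 members were negative. The shallow set ends at 20Hz replicate 1 (8984973 reads, 0.12), close to the next library, 40Hz replicate 5 (9101021 reads, -0.077). Libraries of 9101021 to 10056387 reads, between the shallowest and the deepest, followed no such order. Of these, 40Hz replicates 5 and 6 deviated by -0.077 and -0.068, and 20Hz replicates 4 and 6 by -0.12 and -0.060. The most deviant mouse, 20Hz replicate 3, had 9518969 reads and deviated by 0.33. Red blood cell markers summed highest in 40Hz replicates 1 to 3 and 20Hz replicate 3, at 7012 to 7665 normalized counts, a set that holds the mice with the highest and the lowest ribosomal protein values, and their part in the result was not tested. In whole tissue, fewer cells of a type and less RNA per cell cannot be told apart.

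**Figure D5:**
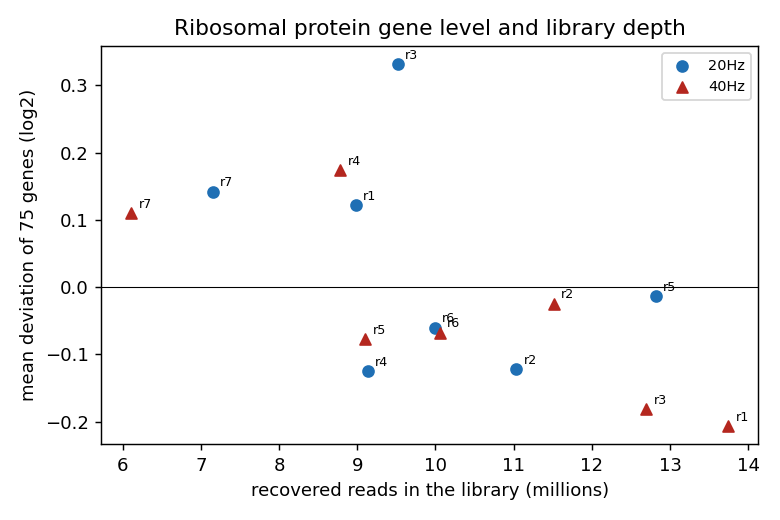
Mean deviation of the 75 core genes (log2) against recovered reads per library, with 20Hz as circles and 40Hz as triangles, labelled by replicate. The 4 shallowest libraries lie at 0.11 to 0.17 and the 5 deepest between -0.21 and -0.014. Libraries of middle depth spread from -0.12 to 0.33.

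Among large subunit genes the 3 of smallest p were Rpl32, Rpl27a and Rplp1. Rpl32 measured 1060, 1195 and 1546 normalized counts at 20Hz (lowest, median and highest) and 969, 1080 and 1304 at 40Hz. Its log2 difference was -0.16 ± 0.083 (SE). Rplp1, a stalk protein that helps recruit elongation factors, measured 9185, 10085 and 12672 against 8504, 8736 and 11925, with -0.14 ± 0.080. Rpl27a had means of 3000 ± 334 and 2730 ± 276 (SD, n = 7 each) and a log2 difference of -0.13 ± 0.077. In each the groups overlapped and the median was lower at 40Hz. The stalk base Rplp0 had means of 1293 ± 130 and 1204 ± 97.6, and Rplp2 33.7 ± 7.75 and 30.4 ± 8.13. Rpl10a, the steadiest large subunit gene with an SD of 0.11 on the log2 scale, had 293 ± 26.2 and 287 ± 18.7. Rpl10, which completes the peptidyl transferase region late in assembly, had 1600 ± 162 and 1468 ± 129.

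In the small subunit the 3 of smallest p were Rps14, Rps28 and Rps24. Rps14, a platform protein near the decoding site, measured 1775, 2140 and 2815 normalized counts at 20Hz and 1686, 1879 and 2243 at 40Hz. Its log2 difference was -0.20 ± 0.094 (SE), with a 95% interval of -0.40 to -0.0059, and its adjusted p in limma was 0.919. The groups overlapped, and 1 of the 7 mice at 40Hz lay above the 20Hz median. Rps28 had means of 1724 ± 274 and 1517 ± 242 (SD, n = 7 each), and Rps24 646 ± 69.3 and 584 ± 63.6. Rps6, whose protein is the classical target of S6 kinase downstream of mTOR, measured 1361, 1482 and 1875 at 20Hz and 1325, 1487 and 1589 at 40Hz. Its log2 difference was -0.041 with a 95% interval of -0.19 to 0.10. Rpsa, also known as the laminin receptor, had means of 3609 ± 591 and 3272 ± 538.

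The members with positive or near-zero differences were few. Rps15a differed by 0.00031 with an interval of -0.11 to 0.11. The largest positive difference, 0.30, was that of the retrogene Rpl37rt, at 3.53 to 21.3 normalized counts. Rps2 differed by 0.25 with an interval of -1.02 to 1.51, Rps12 by 0.21 and Rpl19 by 0.13, all at low or variable counts. The paralogue Rpl7l1, known from ribosome assembly, had means of 1357 ± 203 and 1359 ± 139 (SD, n = 7 each). Rpl36al and its X-linked partner Rpl36a had log2 differences of -0.11 and -0.089, and Rpl22l1 had -0.099. Rpl7 measured 766 ± 89.9 and 707 ± 70.4. Rps27l had the most negative difference, -0.50 with an interval of -1.12 to 0.11, at 17.7 ± 6.14 and 11.7 ± 3.21 normalized counts. Rps19bp1, the look-alike, had means of 560 ± 50.5 and 512 ± 55.5.

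Among ribosomal protein genes whose symbols the rule leaves out, Rack1 and Fau had differences of opposite sign, and neither passed the test. Rack1, a signalling scaffold on the small subunit head, had a log2 difference of -0.13 with an interval of -0.28 to 0.0056. Fau, a fusion gene that yields a small subunit protein, was positive at 0.20 with an interval of -0.082 to 0.49. It measured 731, 917 and 1252 normalized counts at 20Hz and 857, 1138 and 1640 at 40Hz.

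The neighbouring steps of translation gave no call in limma either. For reading these counts, 51.2% of all tested genes were negative, and 2.11% were lower and 2.76% higher at an unadjusted p under 0.05. Of 24 tested translation factors 21 were negative, with a median log2 difference of -0.056, and 1 was lower at that p. That was Eif3e, of the initiation complex, at 343 ± 33.2 and 304 ± 22.2 normalized counts (SD, n = 7 each). Of 27 ribosome assembly genes 14 were negative, with a median of -0.011, and among them Ltv1, a small subunit export factor, had 91.7 ± 17.7 and 73.0 ± 14.7. RNA polymerase I genes, which transcribe ribosomal RNA, were negative in 6 of 9, and mTOR pathway genes in 7 of 11. In the latter list Rps6kb1, the S6 kinase, had 183 ± 23.6 and 216 ± 25.4, with an unadjusted p under 0.05. The mitochondrial ribosome is built from a separate gene set. Of its genes 34 of 45 large and 18 of 24 small subunit members were negative, with medians of -0.039 and -0.082. At the unadjusted p, 2 large subunit genes were lower and 1 was higher, and 0 small subunit genes were either. Mrpl53 had 655 ± 54.5 and 583 ± 46.0, and Mrpl14 stood on the other side, at 796 ± 95.3 and 923 ± 63.1. Translation factors and mitochondrial ribosomal genes followed the cytosolic core mean with median correlations of 0.39, 0.47 (large) and 0.44 (small), below the 0.89 within the core.

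The ages were compared with frequency in the fit, since the labels give 4 and 5 months. No member passed here either: 0 of 82 had an adjusted p under 0.05 in limma, edgeR or DESeq2, where all genes gave 0% in each. The difference was positive, higher at 5 months, in 70 members and negative in 12, where 50% of all tested genes were negative. The median was 0.068 over the members, 0.070 for the large and 0.066 for the small subunit, and -7.9e-05 over all tested genes. Abundant genes as a whole leaned the other way. Of the 1887 with a mean of at least 1000, members included, 66.8% were negative, with a median of -0.036. Rpl34 had the smallest p, with 374 ± 40.7 normalized counts at 4 months and 427 ± 62.9 at 5 months (SD, n = 7 each) and a log2 difference of 0.20 ± 0.097 (SE). It was the single member at an unadjusted p under 0.05 in limma and DESeq2, and edgeR added Rpl28. Genes higher at 5 months at that p made up 3.26% of all genes in limma, 3.77% in edgeR and 3.75% in DESeq2. Rpl28 measured 2002 ± 233 and 2205 ± 278, and Rpl3, a founding protein of the peptidyl transferase region, 103 ± 16.7 and 121 ± 24.4. In the small subunit Rps4x measured 697 ± 46.8 and 754 ± 93.1, Rps7 1669 ± 150 and 1793 ± 193, and Rps2 108 ± 56.1 and 208 ± 119.

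The age values rested on single mice even more. Without 20Hz replicate 3, which was 5 months old, the median over the members was 0.010 and 36 of 82 were negative. It was 0.043 without 40Hz replicate 1 and 0.039 without 40Hz replicate 4. It reached 0.11 without 20Hz replicate 2 or 40Hz replicate 7, and 0.13 without 20Hz replicates 1 and 2. The product of frequency and age, which tests whether the frequency difference depends on age, gave 0 members after adjustment and 0 at an unadjusted p under 0.05 in limma, where all genes gave 0% and 3.78%. The other tools, edgeR and DESeq2, also gave 0 members at either threshold. All genes gave 0% and 0.0374% after adjustment and 3.7% and 3.56% at the unadjusted p. Its median was -0.090 over the members, with 63 of 82 negative, where 49.4% of all genes were.

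The 85 members took 1.15% ± 0.135 of recovered reads in 20Hz mice and 1.09% ± 0.113 in 40Hz mice (SD, n = 7 per frequency). Reads of genes outside the table are not in this total. The core large subunit took 0.678% ± 0.0831 and 0.641% ± 0.0725, and the core small subunit 0.439% ± 0.0494 and 0.421% ± 0.0392. The share was lowest in 40Hz replicate 1, at 0.978% (95% Wilson interval 0.973% to 0.984%), and highest in 20Hz replicate 3, at 1.40% (1.39% to 1.41%). These intervals cover counting error only and are far narrower than the spread between mice.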

How the data were processed

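RNA from the visual cortex of 14 mice was sequenced. The deposited signal values are read counts that the authors divided by a scaling factor per sample (normalized counts). The submitters' processing notes name DESeq2 and GRCm39. No aligner, counter or annotation version was found: not given in the sources used here. Whole reads were recovered for 100% of values within 0.01 read, and 0 columns lacked a sample. The members and lists were chosen with earlier results of these data known.

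The main test was limma 3.58.1 (R 4.3.3) on log2(normalized count + 1), with trend and robust shrinkage and Benjamini-Hochberg adjustment over the 10689 genes with a mean of at least 10. Age was tested with frequency as a covariate. Fold changes are on that log2 scale, which understates changes of low genes. Scripts were tested on simulated data. Alternatives were edgeR 4.0.16 and DESeq2 1.42.0 on recovered reads, other pseudocounts, filters and scalings, a replicate block, covariates and left-out mice. Nothing in the labels says how the mice were housed or processed together, so p-values measure the spread between these samples.

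Members named in the text were those of smallest p in each subunit, the highest and lowest per coding length, the most and least variable, set panels, paralogues with partners, and up to 2 of each other list. Rpl9, Rpl5, Rpl4 and other genes picked for their levels or correlations were chosen after their values were seen. Transcript numbers and start sequences came from RefSeq (GRCm38.p6), and coding lengths from the GENCODE annotation. The build of these sources differs from that of the deposited values, so they served only for names, lengths and sequences. Replicate numbers did not pair the mice. Rpl3l, Rpl10l, Rpl26l1, Rpl39l and Rps4l were not analysed here. A result that needs an item withheld for evaluation is not reported here.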

Additional observations from a re-analysis of the deposited data

Results flagged for a closer look

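In 9 of the 108 groups of 7 mice examined, 1 mouse stood apart from the others by Dixon's 95% criterion. That is, its gap to the nearest mouse was a large share of the group's range. Chance gives about 1 in 20 such groups when the groups are separate. The groups here share the same mice and many of the genes move together, so the count cannot be set against that figure. At 20Hz the highest mouse was replicate 3 for Rps4x (926 normalized counts), Rplp0 (1561), Rps6 (1875) and Rpl10 (1931), the mouse in which both subunits were highest. At 20Hz replicate 6 was highest for Rps27 (12.8) and lowest for Rps27l (5.33), both at low counts. Replicate 2 at 20Hz was lowest for Rps19bp1 (455), and replicate 2 at 40Hz was lowest for Rpl19 (64.0). The choroid plexus gene Ttr reached 13255 in 20Hz replicate 2.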

How the results depend on the processing

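At 40Hz against 20Hz, 0 members were called under every alternative run. DESeq2 called 3 genes in all, none of them a member. When each mouse was left out in turn, the median over the members ranged from -0.131 to -0.043 and the number of negative members from 66 to 74. With scaling to total recovered reads the median was -0.070, with 68 members negative. For age, the number of members lower at 5 months was 12 in all mice. It was 7 with TMM factors, 4 with scaling to total recovered reads, 3 without 20Hz replicates 1 and 2, and 5 with recovered reads as a covariate. It ranged from 3 to 36 when each mouse was left out, the highest without 20Hz replicate 3. Without 40Hz replicates 1 to 3, 1 gene was called for age. The cause of these shifts was not tested. The recovered-reads covariate, the replicate block, a grouping of subunits by symbol prefix and the transcript-number alternatives were not planned and were chosen after seeing the data. Age as a covariate was planned.

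With the replicate number as a block, the frequency median was -0.099 with 72 members negative and 0 called, and the age result had 1 member lower and a median of 0.21. Same-numbered mice correlated by -0.13 to 0.080 in their deviations, and 3 of 14 samples matched best to their own number, so the samples share only a number. At low counts, as in Rpl22, Rps27 and Rps27l, counting error limits what could be detected.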
